A study of Homo sapiens with 6 samples.

Results

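The genes described here encode the proteins that hold RNA polymerase II near the start of a gene and those that let it go: the negative elongation factor NELF (NELFA, NELFB, NELFCD and NELFE), the DSIF pair (SUPT4H1 and SUPT5H), the kinase P-TEFb (CDK9 with its cyclins CCNT1 and CCNT2) and the P-TEFb inhibitor HEXIM1. They were chosen by gene symbol, with the lower level of NELFCD already known from earlier results of these same libraries, and all 10 are among the 33707 genes of the deposited table. The cells were Huh7, an established line from a human liver carcinoma. One group of 3 libraries came from cells given miR-361-3p mimics, which are synthetic double-stranded RNAs made to act as that microRNA, and the other group of 3 came from cells given the negative control mimics-NC. Both groups were transfected with the same reagent and sampled on day 2. The cell line tag of the third mimics library reads Huh8 although its title says Huh7, and the treatment tag of the mimics-NC libraries names wild-type Huh7 cells. No label says whether libraries of one group came from separate cultures, so the p-values measure the spread between these libraries, which may be technical.

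NELF and DSIF bind RNA polymerase II soon after it starts transcription and keep it paused a short way into the gene. P-TEFb phosphorylates NELF, the SUPT5H subunit of DSIF and the polymerase itself, after which NELF leaves and DSIF travels on with the elongating enzyme. HEXIM1, bound to the noncoding RNA 7SK, keeps part of the cell's P-TEFb inactive. A microRNA acts mostly through its seed, bases 2 to 8, which pairs with matching sites in the 3' untranslated regions (UTRs) of messenger RNAs, so the seed and its matches in these genes are shown before the levels.

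The mature miR-361-3p is 23 bases long in RefSeq and lies at chrX:85903641-85903663 on the minus strand of GRCh38.p14. Its seed is in capitals. That the mimic carries this same sequence was not checked, since the labels give the name of the mimic only.
hsa-miR-361-3p: uCCCCCAGgugugauucugauuu

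Coding transcripts of GENCODE 29 with a complete annotated 3' end were searched on the transcript strand for an 8mer (CTGGGGGA), a 7mer-m8 (CTGGGGG) and a 7mer-A1 (TGGGGGA). Each 8mer holds both 7mers and is counted once. Transcripts annotated as incomplete at that end, or not as protein-coding, were left out. Counts of coding transcripts below cover the searched ones only. Of the 10 pausing genes, 3 had such a match in the 3' UTR. SUPT5H, the large DSIF subunit, had an 8mer at chr19:39476579-39476586 on the plus strand, 180 bases after the stop codon and present in 5 of 5 coding transcripts. NELFA, the subunit through which NELF contacts the polymerase, had a 7mer-m8 at chr4:1982905-1982911 on the minus strand, 408 bases after the stop codon in 4 of 4 coding transcripts. HEXIM1 had a 7mer-A1 at chr17:45150284-45150290, 14 bases after the stop codon, and another at chr17:45151249-45151255, 979 bases after it, both on the plus strand. The matches are in capitals below, in GRCh38, with 10 bases on either side.
SUPT5H 3' UTR 8mer: tgagtagagtCTGGGGGAgggtccccac
NELFA 3' UTR 7mer-m8: cacggtggtaCTGGGGGtgcggcaggg
HEXIM1 3' UTR 7mer-A1, nearer the stop codon: gaaactttttTGGGGGAgggggcaaag
HEXIM1 3' UTR 7mer-A1, farther from the stop codon: aatggctgttTGGGGGAttccaaggat

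NELFCD, whose transcripts give both the NELF-C and the NELF-D protein, had none of the 3 matches in its 457-base 3' UTR. Its 1 searched transcript also held 0 copies of TGGGGG and 0 of CTGGGG, the 6-base parts of the seed match. That transcript has 2305 bases, against 6298 for NELFCD in the deposited table, so the search did not cover all counted bases. SUPT4H1 likewise held 0 of both, and each remaining member held a copy of either. NELFB held up to 2 copies of each in its 3' UTR. None of the 3 longer matches was found in the 3' UTRs of CCNT1 or CCNT2, although these are the longest of the 10, at 6037 and 4694 bases. Nor was any found in those of CDK9 (1244 bases), SUPT4H1 (1068 bases), NELFB (618 bases) and NELFE (214 bases). Outside 3' UTRs, SUPT5H had 4 coding 7mers, NELFA had 1 coding match and 1 in its 5' UTR, and CDK9 had 1 in its 5' UTR. In coding sequence, NELFB carried an 8mer that spans an exon junction, between positions 137264353 and 137265879 of chromosome 9, shown here because it is a full match in a gene of the same complex.
NELFB coding 8mer: ggagcaggtgCTGGGGGAcctgtccatg

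These matches are letters found in a window, and are not shown to be sites that the microRNA uses. Across the 9583 tested genes with an annotated 3' UTR, 5.84% held an 8mer and 26.2% held any of the 3 matches. The median log2 fold change of mimics over mimics-NC was 0.0098 in the 560 genes with an 8mer and 0.010 in the 7070 genes with none of the matches. Of the genes with any match 10.4% were called lower, and of the genes with none 11.5% were. Median 3' UTR length was 2588.5 bases in genes with an 8mer, 2316 with any match and 1051 with none. These comparisons were not adjusted for that length, and an effect of the matches was not tested.

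**Figure D1:**
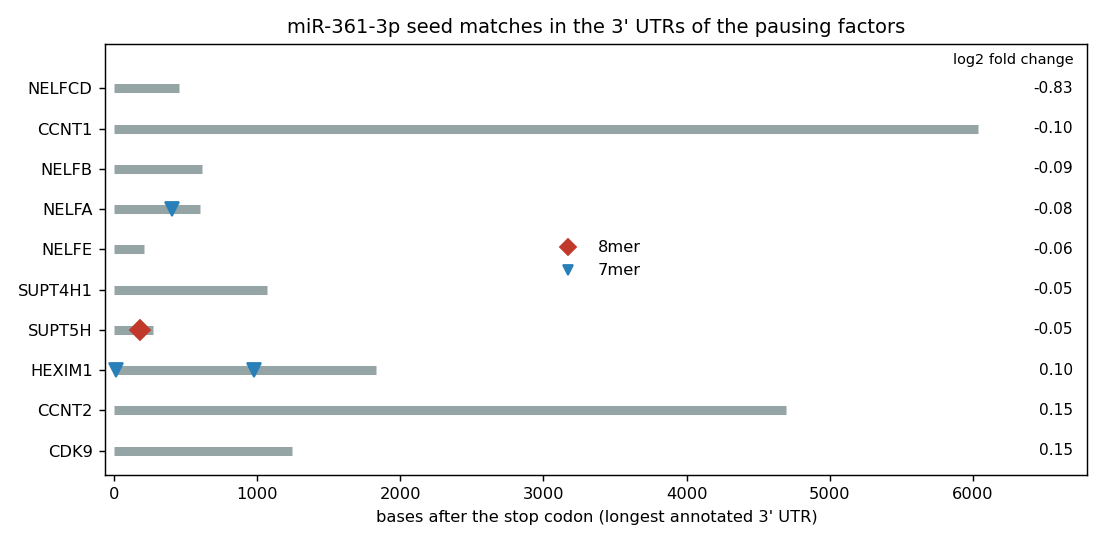
The 3' UTRs of the 10 pausing genes, drawn from the stop codon (0) to the annotated end in bases, with a mark at each seed match of miR-361-3p by type. Marks appear on SUPT5H (1), NELFA (1) and HEXIM1 (2), and the UTR of NELFCD carries none.

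The 6 libraries held 35020139 to 44774192 assigned reads in the mimics group and 42196419 to 52977132 in the mimics-NC group, recovered from the deposited values. Libraries correlated at 0.993 to 0.995 within groups and at 0.987 to 0.990 between groups (Pearson's r of log2 values across 13158 genes, which are not independent replicates). Of 16 hepatocyte genes, 15 were at 1 RPKM or more, with TTR under it, and their sum was 4829 to 5004 RPKM in mimics libraries and 5077 to 5231 RPKM in mimics-NC libraries. That sum was lower in all 3 mimics libraries, and its part in the results below was not tested. Defining immune genes (PTPRC, CD3E and CD14) and all 7 fibroblast or stellate cell genes were under 1 RPKM, with fibroblast sums of 1.87 to 2.43 RPKM in mimics and 2.38 to 4.13 RPKM in mimics-NC. The immune list, of which CD68 and LYZ (2 of 5) passed 1 RPKM, summed to 44.5 to 50.6 RPKM in mimics and 43.8 to 47.65 RPKM in mimics-NC. The endothelial list, of which PECAM1 (1 of 5) passed, summed to 4.32 to 4.67 RPKM in mimics and 4.27 to 4.37 RPKM in mimics-NC. These are mRNA libraries, and the level of mature miR-361-3p itself was not analysed here.

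Levels are RPKM, the reads per kilobase of gene scaled to a common number of assigned reads. The length used is that of the deposited table, which for these genes is 1.0 to 2.73 times the longest coding transcript, so levels of different genes compare only on that length. Differences are on the log2(RPKM + 0.5) scale, which understates the change of low genes, and a gene is called lower or higher where limma's adjusted p is under 0.05 over the 13158 genes whose mean across libraries reached 1 RPKM. All 10 pausing genes passed that minimum. By this rule 21.5% of all tested genes were called, 9.85% lower and 11.7% higher. Among the 10 pausing genes 1 was called, the one picked with its drop known, and 0 of the other 9 were. Because the lower level of NELFCD was known when the genes were picked, the members' differences and calls below are descriptions, given with intervals, and support nothing by themselves.

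NELFCD was the only one of the 10 called. It lies at chr20:58981208-58995133 on the plus strand of GRCh38, the build of all gene positions here. NELFCD had 4.80, 4.37 and 4.28 RPKM in the mimics libraries, against 8.99, 8.11 and 8.02 RPKM in the mimics-NC libraries. The highest mimics library was far below the lowest mimics-NC library. The means were 4.48 ± 0.28 RPKM in mimics and 8.37 ± 0.54 RPKM in mimics-NC (SD, n = 3 each), which puts mimics at 53.5% of mimics-NC. The log2 fold change was -0.83 (SE 0.062, 95% interval -0.98 to -0.69). From 1058 to 1232 reads lay behind each mimics value and from 2390 to 2706 behind each mimics-NC value. Ordered by log2 fold change from the lowest, NELFCD stood at place 19 of the 13158 genes. No other annotated gene shared exonic bases with it. In bulk libraries such as these, fewer cells with the RNA and less RNA per cell cannot be told apart.

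**Figure D2:**
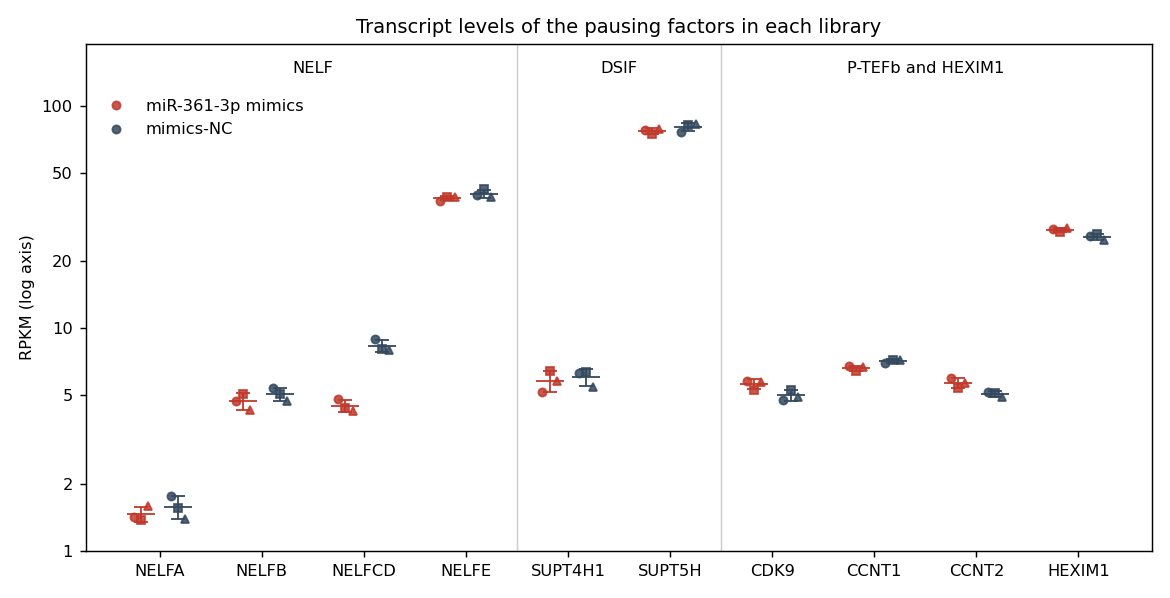
RPKM of each of the 10 pausing genes, side by side on a shared log axis. Each gene has 1 point per library, mimics at left and mimics-NC at right, and a bar for the mean with its SD. The 3 mimics points of NELFCD (4.28 to 4.80) lie well under its 3 mimics-NC points (8.02 to 8.99), and the other genes show small shifts or overlap.

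None of the other NELF subunits was called. NELFB, a core subunit that binds NELFCD in the complex (chr9:137255173-137273547, plus strand), had 4.72, 5.10 and 4.31 RPKM in mimics, against 5.40, 5.06 and 4.71 RPKM in mimics-NC. The groups overlapped, and the log2 fold change was -0.094 (95% interval -0.26 to 0.077). NELFE, the subunit that binds RNA (chr6:31952087-31959110, minus strand), had 37.5, 39.1 and 39.0 RPKM in mimics, against 39.8, 42.3 and 39.1 RPKM in mimics-NC. Its ranges overlapped narrowly, and its log2 fold change was -0.065 (95% interval -0.16 to 0.031). NELFA, with the 7mer-m8 shown above (chr4:1982714-2041903, minus strand), had 1.42, 1.38 and 1.59 RPKM in mimics, against 1.77, 1.56 and 1.39 RPKM in mimics-NC. The NELFA groups overlapped and the log2 fold change was -0.076 (95% interval -0.28 to 0.13), and at 296 to 490 reads a library it was the most thinly counted of the 10.

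The level of NELFCD relative to the other NELF subunits within each library also separated the groups. The log2 ratio of NELFCD to the mean of NELFA, NELFB and NELFE was -0.45, -0.62 and -0.62 in mimics, against 0.22, 0.13 and 0.22 in mimics-NC. All mimics libraries lay below all mimics-NC libraries, and the difference of the means was -0.75. Only that difference can be read, since the sign of each ratio depends on the gene lengths used. Against NELFB alone, NELFCD stood at 0.86 to 1.02 times its RPKM in mimics and at 1.60 to 1.70 times in mimics-NC. These ratios, like those of other pairs given below, were picked after the values were seen, and since NELFCD was chosen for its drop they restate that drop within each library.

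**Figure D3:**
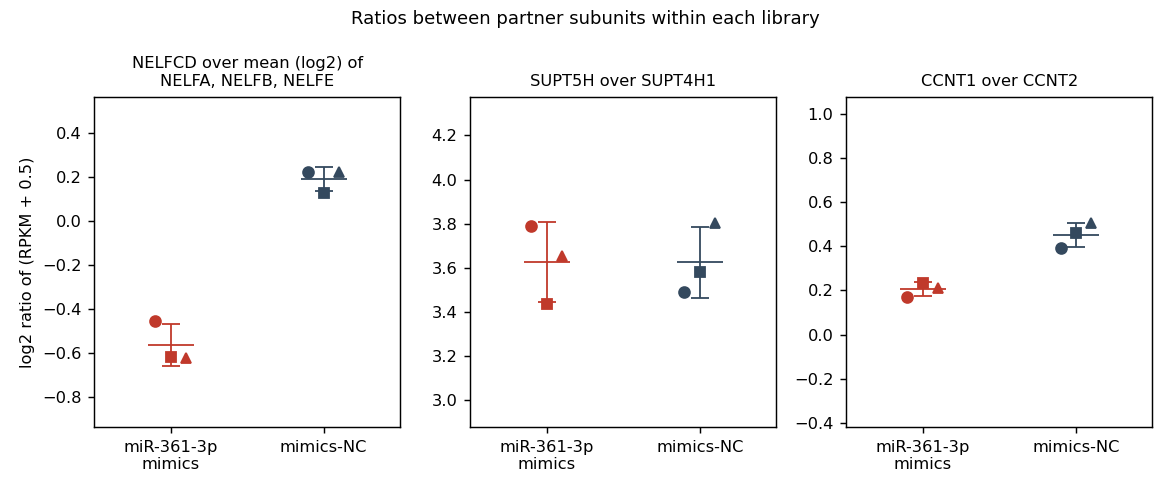
Log2 ratios within each library (log2(RPKM + 0.5) of one gene or group minus another), with 1 point per library, mimics at left and mimics-NC at right. NELFCD over the mean of the other NELF subunits lies between -0.62 and -0.45 in mimics and between 0.13 and 0.22 in mimics-NC, while SUPT5H over SUPT4H1 overlaps.

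Of DSIF, SUPT5H carries the repeats that P-TEFb phosphorylates and was the most abundant of the 10 genes. SUPT5H (chr19:39436156-39476670, plus strand) had 78.3, 74.7 and 79.2 RPKM in mimics, against 76.3, 81.9 and 82.6 RPKM in mimics-NC. The groups overlapped, and the log2 fold change was -0.052 (95% interval -0.15 to 0.050), with mimics at 96.4% of mimics-NC. The only member with an 8mer in its 3' UTR was thus not called, and its interval reaches down to -0.15. SUPT4H1, its small zinc-binding partner (chr17:58345175-58353093, minus strand), had 5.19, 6.46 and 5.82 RPKM in mimics, against 6.33, 6.38 and 5.46 RPKM in mimics-NC. Its groups overlapped too, with a log2 fold change of -0.054 (95% interval -0.26 to 0.16) that became 0.020 without mimics replicate 1. The SUPT5H to SUPT4H1 ratio was 11.6 to 15.1 in mimics and 12.1 to 15.2 in mimics-NC. SUPT4H1 shares 577 of its exonic bases with the antisense gene TSPOAP1-AS1, and whether the authors' counting used strand is not given in the sources used here.

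Of P-TEFb, none of the 3 genes was called, and their point estimates had mixed signs. Limma's adjusted p was 0.099 for CDK9, 0.071 for CCNT2 and 0.136 for CCNT1, although their unadjusted intervals exclude 0. CDK9, the kinase (chr9:127785679-127790787, plus strand), had 5.82, 5.29 and 5.77 RPKM in mimics, against 4.77, 5.31 and 4.93 RPKM in mimics-NC. The groups overlapped by a small margin, and the log2 fold change was 0.15 (95% interval 0.020 to 0.29). CCNT2, one of its cyclins (chr2:134918235-134959342, plus strand), had 5.97, 5.41 and 5.71 RPKM in mimics, against 5.19, 5.13 and 4.91 RPKM in mimics-NC. All 3 mimics libraries were above all mimics-NC libraries, and the log2 fold change was 0.15 (95% interval 0.034 to 0.27). CCNT1, the cyclin that HIV Tat binds (chr12:48688458-48716998, minus strand), had 6.78, 6.45 and 6.70 RPKM in mimics, against 6.98, 7.24 and 7.18 RPKM in mimics-NC. Here all 3 mimics libraries were below all mimics-NC libraries, with a log2 fold change of -0.096 (95% interval -0.19 to -0.0010). CCNT1 over CCNT2 was 1.14 to 1.19 in RPKM in mimics and 1.35 to 1.46 in mimics-NC, with no overlap.

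HEXIM1, the inhibitor (chr17:45148502-45152101, plus strand), had 27.9, 27.1 and 28.2 RPKM in mimics, against 25.9, 26.6 and 25.04 RPKM in mimics-NC. The mimics libraries were all above the mimics-NC libraries, by a narrow gap, and the log2 fold change was 0.099 (95% interval 0.012 to 0.19). HEXIM1 was not called (limma adjusted p = 0.10), and its 3' UTR carries the pair of 7mer-A1 matches shown above. HEXIM1 shares 520 exonic bases with the opposite-strand gene AC002117.1. CCNT2 shares 148 with CCNT2-AS1, NELFE 31 with SKIV2L, both on the opposite strand, and SUPT4H1 143 with RNF43 on its own strand.

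In the count over the 10 genes, 1 was lower (NELFCD), 0 were higher and 9 were not called. Without adjustment, 5 had a limma p under 0.05 (NELFCD, selected on its drop, and CDK9, CCNT1, CCNT2 and HEXIM1), 3 of them with a higher level in mimics, while 35.9% of all tested genes had such a p. The voom fit, an alternative chosen after seeing the data, called 2 (NELFCD lower and CCNT2 higher) and 28.8% of all tested genes. Groups did not overlap in 4 of the 10 genes (NELFCD and CCNT1 lower, CCNT2 and HEXIM1 higher), against 41.4% of all tested genes. The median log2 fold change of the 10 was -0.059, and 0.012 over all tested genes. The 9 genes other than NELFCD ranged from -0.096 to 0.15.

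**Figure D4:**
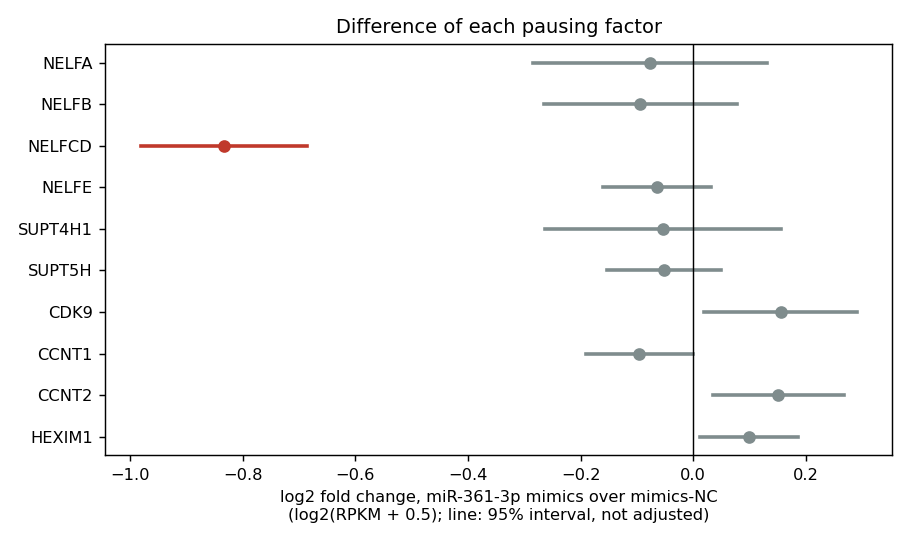
Log2 fold change of mimics over mimics-NC for the 10 pausing genes on the log2(RPKM + 0.5) scale, with unadjusted 95% intervals and genes grouped by complex. NELFCD stands at -0.83, and the other 9 lie between -0.096 and 0.15.

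By RPKM, in mimics the order was SUPT5H (77.4 RPKM), NELFE (38.6 RPKM), HEXIM1 (27.7 RPKM), CCNT1 (6.64 RPKM), SUPT4H1 (5.82 RPKM), CCNT2 (5.70 RPKM), CDK9 (5.63 RPKM), NELFB (4.71 RPKM), NELFCD (4.48 RPKM) and NELFA (1.46 RPKM). In mimics-NC the order was SUPT5H (80.3 RPKM), NELFE (40.4 RPKM), HEXIM1 (25.9 RPKM), NELFCD (8.37 RPKM), CCNT1 (7.13 RPKM), SUPT4H1 (6.06 RPKM), CCNT2 (5.08 RPKM), NELFB (5.06 RPKM), CDK9 (5.00 RPKM) and NELFA (1.57 RPKM). By RPKM NELFCD was thus 9th in mimics and 4th in mimics-NC, but its place did not differ between groups when set on transcript length. In mimics, the libraries of CCNT1, SUPT4H1 and CCNT2 each overlapped those of the next gene down, as did those of NELFB and NELFCD. In mimics-NC, CCNT2, NELFB and CDK9 overlapped in the same way. The table gives NELFCD 6298 bases, which is 2.73 times its longest coding transcript of 2305 bases in GENCODE 29. With every gene set on its longest coding transcript, NELFCD would stand at 12.2 RPKM in mimics and 22.9 RPKM in mimics-NC, and would be 4th of the 10 in both groups.

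The replicates of these genes spread little. The coefficient of variation of NELFCD was 6.20% in mimics and 6.42% in mimics-NC, and the widest of the 10 were 10.9% in mimics (SUPT4H1) and 11.8% in mimics-NC (NELFA). The narrowest were 1.95% in mimics (HEXIM1) and 1.91% in mimics-NC (CCNT1).

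Among genes with a recognised symbol and no clone name, log2 profiles over the 6 libraries were compared with that of NELFCD. By root mean square difference after centring each gene, the nearest were EID2 (0.048), MFN2 (0.057), PTP4A1 (0.058), KIF20A (0.061) and LMNB1 (0.071). Since these genes were picked for matching that profile, their lower levels in mimics follow from the choice. EID2, an inhibitor of differentiation, had 4.22 ± 0.36 RPKM in mimics and 7.85 ± 0.16 RPKM in mimics-NC. MFN2, which fuses mitochondria, had 11.9 ± 0.092 RPKM in mimics and 21.2 ± 0.76 RPKM in mimics-NC (SD, n = 3 each). MFN2 carried a 7mer-m8 and LMNB1, a lamin of the nuclear envelope, a 7mer-A1 in the 3' UTR, while EID2, PTP4A1 and KIF20A carried no match there.

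Genes that work with the pausing factors were described from 7 lists of 79 genes in all, of which 71 passed the minimum level. Of these 71, 5 were called lower and 11 higher, which is 16 calls beside the 21.5% of all tested genes that were called. The median of the 71 was 0.015, beside 0.012 for all genes. The list of the 7SK particle, which holds P-TEFb, had 1 of 4 genes higher, 0 lower and a median of 0.097. HEXIM2, the paralog of HEXIM1, rose to 4.37 ± 0.17 RPKM in mimics, against 3.79 ± 0.099 RPKM in mimics-NC (log2 fold change 0.18, limma adjusted p = 0.038). That call was lost without mimics replicate 2 or 3 or any one mimics-NC replicate (adjusted p up to 0.112). LARP7 averaged 21.4 RPKM in mimics and 20.2 RPKM in mimics-NC, and MEPCE, which caps 7SK, 8.55 RPKM in mimics and 7.85 RPKM in mimics-NC, neither called. LARP7, MEPCE and, in the lists below, AFF4 and POLR2A were named for their roles after their values were seen. The 7SK RNA itself (RN7SK) averaged 39.1 RPKM in mimics and 41.9 RPKM in mimics-NC and was not called (limma adjusted p = 0.473), but it lacks a poly(A) tail and has many near copies in the genome, so its value in these mRNA libraries is uncertain.

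Of 7 tested genes of the super elongation complex, which brings P-TEFb to genes, 1 was lower and 0 higher, with a median of -0.024. EAF1, a partner of the ELL elongation factors, fell to 5.84 ± 0.16 RPKM in mimics, against 6.90 ± 0.080 RPKM in mimics-NC (log2 fold change -0.22, limma adjusted p = 0.0091), and its call held with each library left out. ELL2, the most abundant of the uncalled genes, averaged 12.5 RPKM in mimics and 12.8 RPKM in mimics-NC. AFF4, the scaffold, averaged 10.3 RPKM in mimics and 9.17 RPKM in mimics-NC and was not called. Of 12 genes of the PAF1 complex and other elongation factors, 1 was lower and 3 higher, with a median of 0.0002. PAF1 itself averaged 179 ± 7.8 RPKM in mimics and 208 ± 5.6 RPKM in mimics-NC (-0.21, limma adjusted p = 0.014), a call lost without mimics replicate 3 or mimics-NC replicate 2 (adjusted p up to 0.055). Its fellow subunits CTR9 (0.14, limma adjusted p = 0.022) and CDC73 (0.13, limma adjusted p = 0.045) were higher, and so was the elongation factor TCEA1 (0.18, limma adjusted p = 0.027). CTR9 and CDC73 kept their calls only without mimics replicate 1, among the fits that leave out a library, with adjusted p up to 0.080 and 0.133. TCEA1 kept its call without mimics replicate 1 and without mimics-NC replicate 1, with adjusted p up to 0.089 otherwise.

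Integrator, the complex that cuts the RNA of paused polymerase, had 12 tested genes, 1 lower, 1 higher and a median of 0.036. INTS13, listed under its older symbol ASUN, rose to 36.0 ± 2.0 RPKM in mimics, against 28.9 ± 0.74 RPKM in mimics-NC (log2 fold change 0.31, limma adjusted p = 0.0049), with each library left out in turn as well. INTS1, its largest subunit, averaged 10.9 RPKM in mimics and 12.2 RPKM in mimics-NC (-0.16, limma adjusted p = 0.024), a call that held only without mimics replicate 3 when a library was left out (adjusted p up to 0.068). Of the 13 genes listed as subunits of RNA polymerase II by symbol (POLR2A to POLR2M), 1 was higher, 0 lower and the median was 0.0013. That one was POLR2D at 6.12 RPKM in mimics and 5.03 RPKM in mimics-NC (0.26, limma adjusted p = 0.024), a call that held without mimics replicate 3 and without mimics-NC replicate 2 and was lost without any other library (adjusted p up to 0.075). POLR2A, the catalytic subunit, averaged 19.0 RPKM in mimics and 18.5 RPKM in mimics-NC and was not called. POLR2J, which has near-identical copies that reads may not tell apart, averaged 29.98 RPKM in mimics and 31.1 RPKM in mimics-NC and was not called.

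Of the 10 genes of other transcription kinases and the initiation factor TFIIF, 1 was lower and 2 were higher, with a median of -0.014. GTF2F2, the small TFIIF subunit, had 9.57, 9.81 and 9.66 RPKM in mimics, against 7.35, 7.16 and 8.11 RPKM in mimics-NC. Its groups did not overlap, its log2 fold change was 0.34 (limma adjusted p = 0.0049), and the call held with each library left out. CDK12, a kinase of the elongating polymerase, was lower (-0.15, limma adjusted p = 0.036) and CCNC, the cyclin of the Mediator kinase, was higher (0.13, limma adjusted p = 0.041). In the fits that leave out a library, CDK12 kept its call only without mimics replicate 1 (adjusted p up to 0.113) and CCNC only without mimics replicate 2 (adjusted p up to 0.124).

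Of the 13 tested genes known for a paused polymerase at their start, mostly fast-responding genes, 1 was lower and 3 were higher, with a median of 0.12. MYC, the growth-promoting transcription factor, had 10.2, 10.5 and 11.5 RPKM in mimics, against 7.67, 7.93 and 6.99 RPKM in mimics-NC. The mimics libraries of MYC were all above the mimics-NC libraries (log2 fold change 0.49, limma adjusted p = 0.0027). GADD45B, a stress response gene, had 11.5, 12.2 and 11.5 RPKM in mimics, against 15.6, 15.2 and 14.8 RPKM in mimics-NC. Its libraries were separated the other way (-0.36, limma adjusted p = 0.0016). IER2, an immediate early gene, averaged 4.09 RPKM in mimics and 3.30 RPKM in mimics-NC (0.27, limma adjusted p = 0.010), and these 3 calls held with each library left out. IER3 averaged 21.9 RPKM in mimics and 19.7 RPKM in mimics-NC (0.15, limma adjusted p = 0.031), a call that held only without mimics replicate 3 when a library was left out (adjusted p up to 0.093). These libraries measure RNA levels, and the position of the polymerase was not measured at any of these genes.

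**Figure D5:**
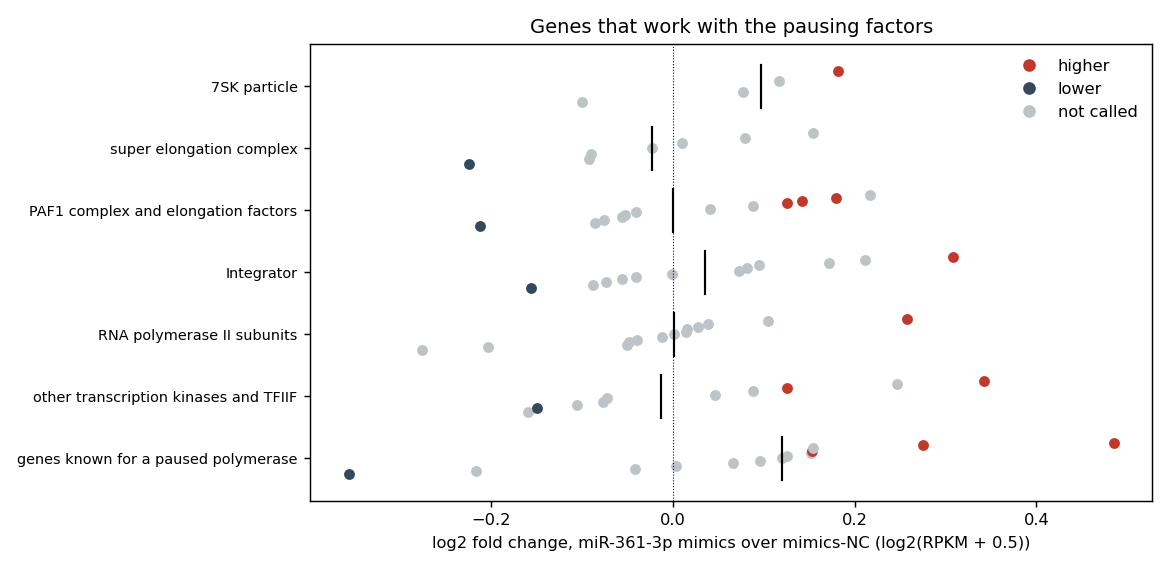
Log2 fold change of mimics over mimics-NC on the log2(RPKM + 0.5) scale for the 71 tested genes of the 7 lists, with 1 point per gene coloured by call and a vertical tick at each list's median. Calls of both signs are spread over the lists, from GADD45B at -0.36 to MYC at 0.49.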

How the data were processed

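RNA was measured by stranded mRNA sequencing in 3 miR-361-3p mimics and 3 mimics-NC libraries of Huh7 cells, per the labels' protocols. The authors deposited RPKM per gene. The submitters' processing notes name Trimmomatic 0.36, featureCounts of Subread 1.5.1, edgeR 3.12.1 and GRCh38. Strand setting, aligner and annotation release: not given in the sources used here. Low values were whole multiples of 1 read (all within 0.01), which gave the depths in the report. Intervals cover the spread between libraries.

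Values were tested as log2(RPKM + 0.5) with limma 3.58.1 in R 4.3.3 (trended variance, both groups, no covariate), for genes whose mean across libraries reached 1 RPKM, with Benjamini-Hochberg adjustment and a threshold of 0.05. The fit was tested on simulated data. The members and lists were chosen with earlier results of these data known. Named genes were all members and up to 4 called genes with the largest change per list (or the most abundant genes, to make 2). Also named were the 5 genes with a recognised symbol nearest to NELFCD in profile. Seed matches came from GENCODE 29 transcripts and the microRNA from RefSeq. Alternatives were other constants, filters and scalings, a replicate block, each library left out and, added after seeing the data, voom on recovered reads. Some list genes are not reported here. No label says that replicate numbers pair the libraries, so the main fit did not pair them.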

Additional observations from a re-analysis of the deposited data

How the results depend on the processing

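The log2 fold change of NELFCD, which was selected on its drop in these libraries, was -0.92 to -0.77 over the 14 alternatives, given as a description. Its log2 ratio to the other NELF subunits differed by -0.81 to -0.70. The number of members called was 1 throughout, except for 2 with voom. All genes called numbered 2835, against 3787 with voom, 1716 with no filter on low values and 1780 to 2150 with each replicate left out (1820 where mimics replicate 3 was omitted, and 1780 and 1859 where replicate 2 or 3 of mimics-NC was). Median-of-ratios scaling gave 1431 lower and 1387 higher, against 1296 lower and 1539 higher with the deposited scaling. List genes called numbered 16, against 24 with voom (14 of the 16 among them), 8 with no filter (8 of the 16), 8 with the replicate block (8 of the 16) and 8 to 12 with each replicate left out. Without mimics replicate 3 there were 9, and without mimics-NC replicate 1, 2 or 3 there were 8 each. With a replicate left out, 7 to 12 of the 16 were kept. Only 6 of the 16 (EAF1, INTS13, GTF2F2, IER2, GADD45B and MYC) were called under every alternative that tested them. The other 10 were lost in some, and HEXIM2 and IER3 were lost with voom, the replicate block and no filter as well. The log2 fold change of SUPT4H1, -0.054 with all libraries, ranged from -0.125 to 0.020 and was above 0 without mimics replicate 1. That of ELL2, -0.024 with all libraries, ranged from -0.062 to 0.0067 and was above 0 without mimics-NC replicate 3. The cause was not tested. Same-numbered libraries did not deviate together (correlations -0.052, -0.016 and 0.024), and under the replicate block 1976 genes were called. NELFA and NELFB have no value with a minimum of 5 RPKM. The planned edgeR, DESeq2 and TMM fits were not run because the deposited unit is RPKM. Voom on the reads recovered from those values was added instead. Depth limits NELFA most, at 296 to 490 reads.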
